A study of Homo sapiens with 2 samples.

Results

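The bile acid receptor axis was described here through 7 genes chosen by name: NR1H4, NR0B2, NR5A2, FGF19, SLC27A5, BAAT and AMACR. All 7 had values, out of 11511 genes with values in the table. RNA-seq gave the expression of Hep3B, an established human hepatocellular carcinoma line obtained from ATCC and grown in DMEM with serum. One group was the untreated control and the other was treated with 25 µM A4368, a compound known here only by that code, for 24 h. Each group was 1 library, the vehicle was not given in the sources used here, and no genetic change was named for either group. The values are taken as FPKM, which scales the fragments of a gene to its transcript length and to the mapped fragments of the library. Where a pair of values is given, the untreated library comes first. Every difference below is between these libraries, and none has a replicate check or a p-value.

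Hepatocytes make bile acids from cholesterol, shorten the sterol side chain in peroxisomes and join the product to glycine or taurine before it is secreted. Bile acids bind the nuclear receptor encoded by NR1H4 (also called FXR), which induces NR0B2 (SHP), a nuclear receptor without a DNA-binding domain that represses other factors, among them the NR5A2 product (LRH-1). FGF19 is a hormone that the ileum releases on bile acid uptake, and it restrains bile acid synthesis in the liver through FGFR4 and its coreceptor KLB. It is also produced by some liver tumours.

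The cells expressed hepatocyte markers, and some markers of bile duct epithelium as well. All 12 hepatocyte markers had values, among them ALB at 9183 FPKM untreated and 8930 FPKM treated. Of 7 markers of bile duct epithelium 5 had values, among them EPCAM at 341 and 282 FPKM and KRT19 at 279 and 206 FPKM. Of 9 markers of ileal enterocytes, the normal source of FGF19, only VIL1 and CDX2 had values. None of 5 endothelial markers had a value.

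Start-site sequence was available for 5 of the 7 genes, as 7 windows of the RefSeq promoter table on GRCh38.p14. NR0B2 and FGF19 have no entry there. The windows of NR1H4, BAAT and SLC27A5 are shown because, of the members with a window, these 3 had the lowest ratios after treatment, and that of NR5A2 because it is the member with a higher value. Each run is the 250 bases before the start site, 5′ to 3′ on the gene's strand. For BAAT and NR5A2, which have more than 1 window, it is the window whose start lies nearest to a start in GENCODE release 29. Capitals mark a match to a searched motif on either strand.
NR1H4 (chr12:100503110-100503359, plus strand): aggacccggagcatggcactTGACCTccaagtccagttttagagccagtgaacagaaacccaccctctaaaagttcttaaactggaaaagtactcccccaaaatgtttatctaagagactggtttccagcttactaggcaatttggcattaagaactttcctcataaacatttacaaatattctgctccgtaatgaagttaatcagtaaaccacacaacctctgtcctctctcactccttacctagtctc
BAAT (chr9:101383565-101383814, minus strand): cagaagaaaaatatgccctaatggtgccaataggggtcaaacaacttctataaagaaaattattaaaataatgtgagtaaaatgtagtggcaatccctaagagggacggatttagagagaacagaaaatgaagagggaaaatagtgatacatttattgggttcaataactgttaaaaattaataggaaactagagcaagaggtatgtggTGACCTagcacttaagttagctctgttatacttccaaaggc
SLC27A5 (chr19:58511993-58512242, minus strand): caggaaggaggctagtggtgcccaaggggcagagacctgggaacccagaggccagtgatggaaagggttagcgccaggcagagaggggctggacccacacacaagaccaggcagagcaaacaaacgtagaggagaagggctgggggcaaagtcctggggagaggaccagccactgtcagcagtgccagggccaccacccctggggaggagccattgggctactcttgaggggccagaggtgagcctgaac
NR5A2 (chr1:200027460-200027709, plus strand): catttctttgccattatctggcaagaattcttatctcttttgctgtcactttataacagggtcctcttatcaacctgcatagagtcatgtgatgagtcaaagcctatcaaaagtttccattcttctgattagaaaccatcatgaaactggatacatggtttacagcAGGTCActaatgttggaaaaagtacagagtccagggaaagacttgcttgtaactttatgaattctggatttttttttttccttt

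The motifs searched were the nuclear receptor half-site AGGTCA, its inverted repeat (AGGTCA, 1 base, TGACCT) bound by the bile acid receptor with RXR, the extended half-sites CAAGGTCA and CAAGGCCA of NR5A2, and the HNF4 site CAAAGTCCA. The half-site AGGTCA is contained in the inverted repeat and in CAAGGTCA. The inverted repeat was also searched with up to 2 mismatches. The shown NR1H4, BAAT and NR5A2 windows each held 1 half-site, which 12.1% of all 35116 windows held, and the shown SLC27A5 window held none of these motifs. Nor did the windows not shown, those of AMACR and the second ones of BAAT and NR5A2. No member window matched the inverted repeat at 2 mismatches, which 0.945% of all windows did, nor an NR5A2 site (1.14% for CAAGGTCA and 1.38% for CAAGGCCA), nor the HNF4 site (0.325%). The NR1H4 start shown is an internal one, 29652 bases downstream of the first NR1H4 start in GENCODE. It also coincides with an annotated start.

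The receptor gene itself was lower after treatment. NR1H4 was at 10.3 FPKM untreated and 6.63 FPKM treated, a 1.56-fold lower value. Its log2 ratio, computed as log2((A4368 + 1)/(control + 1)), was -0.57, just short of the limit of 1.5-fold used here, which is 0.58 on that scale. Of 4394 genes with a mean of 5 to 20 FPKM, 1.98% lay past the limit downward, and 2.57% were at least 1.5-fold lower by the plain ratio.

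NR0B2, the corepressor gene induced by the bile acid receptor, was the most abundant member per length in both libraries. It stood at 67.3 FPKM untreated and 54.8 FPKM treated, 1.23-fold lower, with a log2 ratio of -0.29. NR5A2, which encodes an activator of bile acid synthesis genes, went the other way, at 34.9 FPKM untreated and 39.7 FPKM treated, 1.14-fold higher, or 0.18 as a log2 ratio. At a mean of 20 FPKM or more, where both genes lie, 1.21% of genes lay past the limit downward and 0.321% upward. NR0B2 was thus 1.93 times as abundant per length as NR5A2 in the control and 1.38 times as abundant with A4368. Over NR1H4, the level of NR5A2 was 3.37-fold in the control and 5.99-fold after treatment.

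FGF19 was at 5.16 FPKM untreated and 3.35 FPKM treated. This is 1.54-fold lower, or -0.50 on the log2 scale with the pseudocount, where the pseudocount takes up more of the value of a low gene. Genes with a mean of 1 to 5 FPKM, as FGF19 and SLC27A5 have, varied most between the libraries, their log2 ratios having an SD of 0.34. In that range 3.96% of 2476 genes lay past the limit downward, and 8.97% had a plain ratio at least 1.5-fold lower.

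Among the enzymes, SLC27A5 differed most. It encodes the bile acyl-CoA synthetase, which activates bile acids for conjugation, and was at 5.28 FPKM untreated and 2.76 FPKM treated, 1.91-fold lower with a log2 ratio of -0.74. SLC27A5 overlaps exons of ZNF446 on the other strand, and 24.3% of its 31-base words occur in another gene. Whether the libraries kept strand is not given in the sources used here, so reads in the overlap cannot be assigned. ZNF446 itself was at 6.13 FPKM untreated and 5.60 FPKM treated.

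BAAT, whose enzyme transfers the activated bile acid to glycine or taurine, was at 17.4 FPKM untreated and 12.6 FPKM treated. The value was 1.39-fold lower, with a log2 ratio of -0.44, and 3.87% of genes with a mean of 5 to 20 FPKM had a lower ratio. BAAT overlaps the pseudogene AL359893.1 on the other strand, and 12.9% of the words of BAAT occur in another gene. As for SLC27A5, reads in the overlap cannot be assigned. Both enzymes of conjugation were thus lower, and the ratio of BAAT to SLC27A5 went from 3.30 in the control to 4.54 with A4368. AMACR, the racemase that prepares the side chain for peroxisomal shortening, differed least among the lower members, at 19.6 FPKM untreated and 17.1 FPKM treated. Its value is uncertain, since 62.1% of its words occur in another gene, and the readthrough gene C1QTNF3-AMACR alone holds 52.9% of its words.

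**Figure D1:**
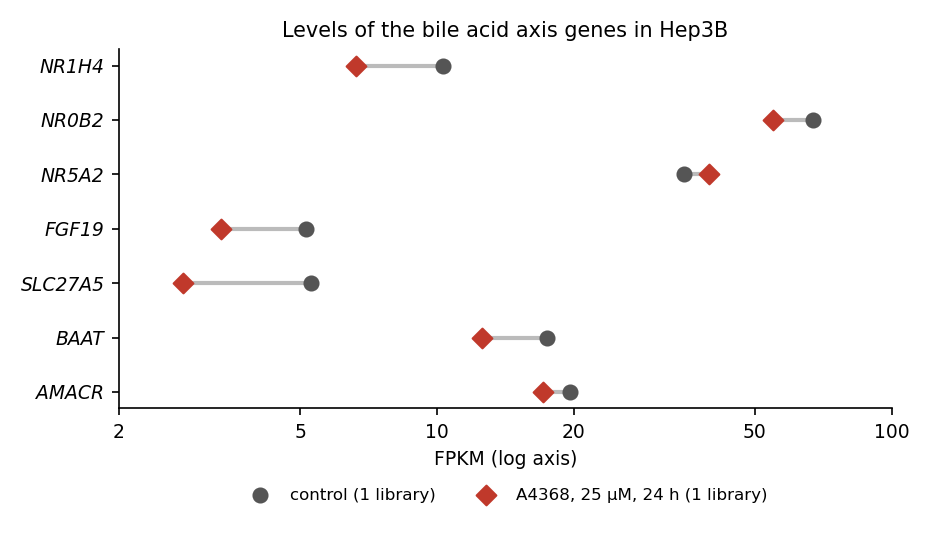
FPKM of the 7 genes (log axis) in the control library (circles) and the A4368 library (diamonds), with a line joining the values of a gene. The diamond lies left of the circle for 6 genes and right of it for NR5A2.

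Of the 7 genes, 6 were lower with A4368, where 48.0% of all 11238 genes tested (mean of 1 FPKM or more) were lower. The median log2 ratio of the 7 was -0.44, against 0.01 over all those genes. Past the 1.5-fold limit lay 1 of the 7, SLC27A5, where 2.12% of all genes lay past it downward and 1.08% upward. By the plain ratio of the FPKM values, 3 of 7 were at least 1.5-fold lower (SLC27A5, NR1H4 and FGF19), against 3.48% of all genes. The order by level was NR0B2, NR5A2, AMACR, BAAT, NR1H4, SLC27A5 and FGF19 in the control. With A4368 only the last pair changed places. Without replicates it cannot be said which neighbours in this order differ.

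**Figure D2:**
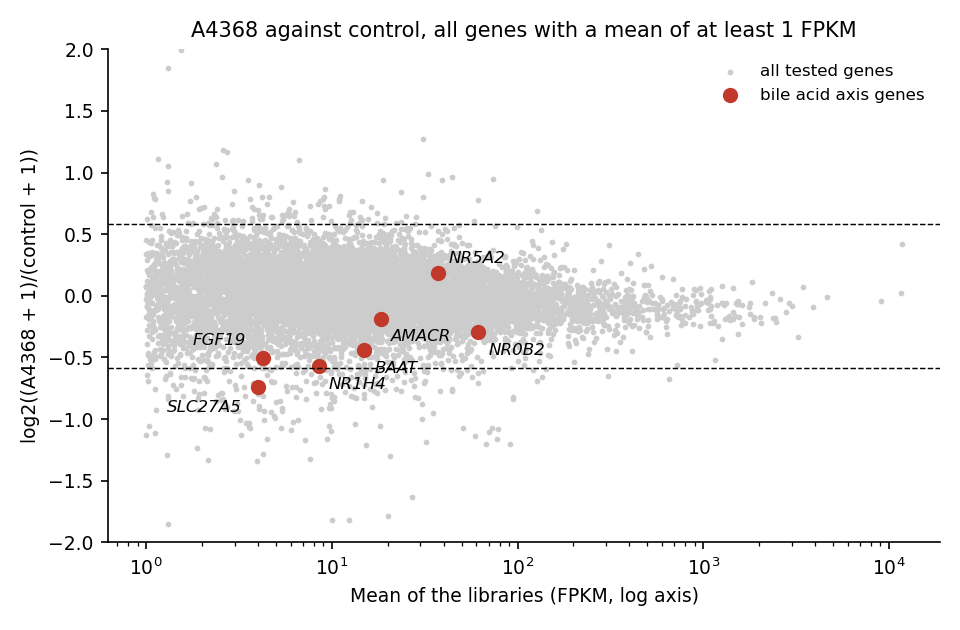
log2 ratio of A4368 over control (pseudocount 1) against the mean FPKM (log axis) for all 11238 genes (grey, 7 beyond the axis) and the 7 bile acid axis genes (red), with dashed lines at 1.5-fold. SLC27A5 lies below the lower line, NR1H4 just above it, and NR5A2 above 0.

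NR1H4 stood near the low end of the nuclear receptor family, a family chosen after values were seen and taken whole. Of 48 nuclear receptor genes, 29 were tested, 14 of them lower and 15 higher with A4368 (13 and 16 when rescaled), with a median log2 ratio within 0.01 of 0. The ratio of NR1H4 was the lowest of the 29 with the pseudocount of 1, followed by the retinoic acid receptor gene RARB (-0.56) and the orphan receptor gene NR2F2 (-0.49). RARB, at 2.88 FPKM untreated and 1.64 FPKM treated, had the lowest ratio with a pseudocount of 0.1 (-0.78, against -0.63 for NR1H4), and NR2F2 with a pseudocount of 5 (-0.42, against -0.40). NR0B2 had the fifth lowest ratio and NR5A2 the ninth highest. The dimer partners of the bile acid receptor were higher, RXRA at 22.4 FPKM untreated and 25.9 FPKM treated, and RXRB at 28.3 and 31.9 FPKM. None of the 29 passed the limit. By the plain ratio, RARB was 1.76-fold and NR1H4 1.56-fold lower, while PPARA and NR3C2 were each 1.53-fold higher. Among all tested genes, 48.0% were lower and 3.48% were at least 1.5-fold lower by the plain ratio.

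**Figure D3:**
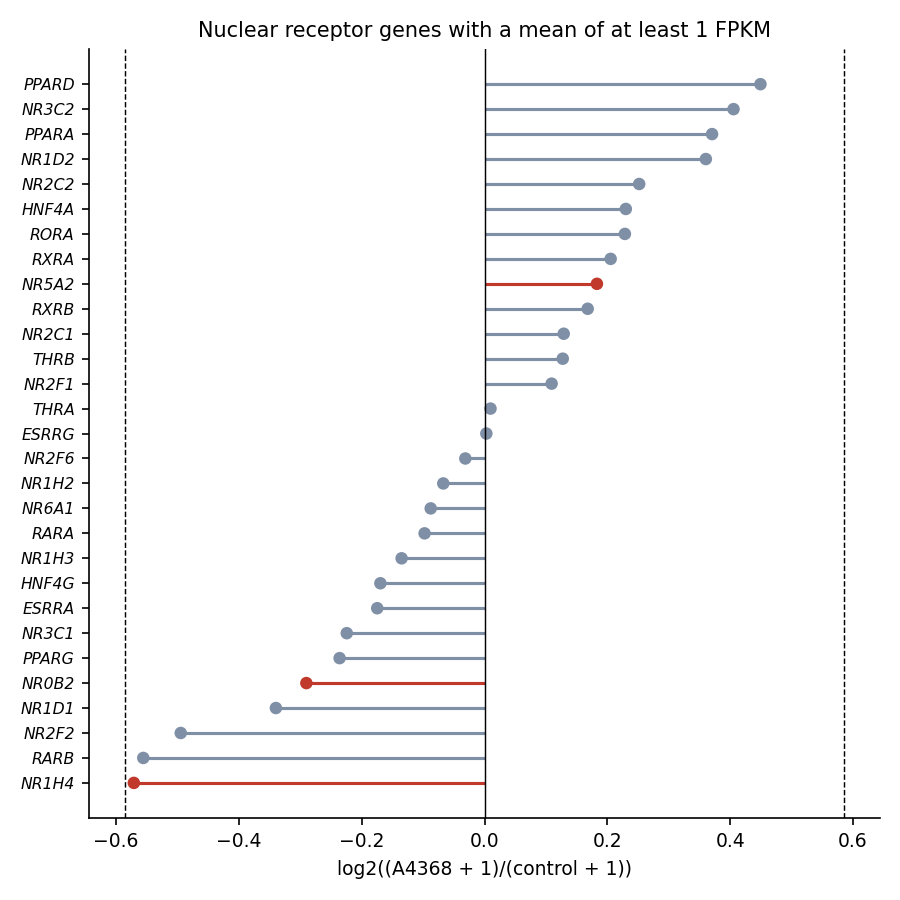
log2 ratio of A4368 over control (pseudocount 1) for the 29 tested nuclear receptor genes, ordered by ratio, with the 3 members in red and dashed lines at 1.5-fold. NR1H4 is lowest at -0.57 here, though not with a pseudocount of 0.1 or 5, and NR5A2 is among the 15 higher genes at 0.18.

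Partners and coregulators of these receptors went both ways. Of 15 tested 10 were higher and 5 lower, where 48.0% of all tested genes were lower, and none of the 15 passed the limit. The median log2 ratio of the 15 was 0.11. The counts were the same after a rescaling that gave both libraries 1 sum over all but the 50 highest genes. PRMT1, an arginine methyltransferase, was at 217 FPKM untreated and 209 FPKM treated, the remodeller gene SMARCA4 at 55.8 and 52.7 FPKM, and GPS2, a corepressor subunit, at 48.3 and 55.8 FPKM. However, 46.5% of the words of GPS2 occur in another gene. Liver transcription factors were split, with 10 of 21 lower and 11 higher (9 and 12 when rescaled) and a median within 0.01 of 0. HNF4A was at 103 FPKM untreated and 121 FPKM treated, CEBPA at 184 and 185 FPKM, and NR2F6 at 106 and 104 FPKM. CEBPA shares 39.8% of its words with another gene.

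Targets of the bile acid receptor other than the members were mixed. Of 23 genes listed, 15 were tested, including NR0B2, FGF19, SLC27A5 and BAAT. Of the other 11, 7 were lower and 4 higher, or 6 and 5 after the rescaling, and their median log2 ratio was -0.05. Among all tested genes, 48.0% were lower and 2.12% lay past the limit downward as deposited. APOC2, which encodes an activator of lipoprotein lipase, passed the limit at 24.6 FPKM untreated and 14.1 FPKM treated, though 56.2% of its words occur in another gene. The abundant targets differed less, FGA at 273 and 263 FPKM, FGG at 158 and 166 FPKM, and C3, the complement gene, at 232 and 191 FPKM. By the plain ratio, KNG1 was 1.52-fold lower (log2 ratio -0.56) and PPARA 1.53-fold higher (0.37), though neither passed the limit. Targets averaging under 1 FPKM were left out of these counts. Among them SLC51B was 2.14-fold lower and PDK4 3.02-fold higher, while ABCB4 and PLTP had log2 ratios of -0.11 and -0.07. ABCB11, the bile salt export pump gene and a defining target, had no value in the table, nor had SLC51A, SLCO1B3 and FETUB. Since genes of low level carry no value there, a gene without one may be expressed at a low level.

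The NR5A2 list had values for NR0B2 and 3 other genes of its 10. These 3 were lower, none past the limit, with a median log2 ratio of -0.09, where 56.0% of all genes averaging 20 FPKM or more were lower. APOA1 was at 710 FPKM untreated and 665 FPKM treated, SCARB1, a lipoprotein receptor gene, at 60.0 and 56.2 FPKM, and APOM, outside the naming rule, at 53.6 and 40.6 FPKM. CYP7A1 and CYP8B1, the synthesis enzymes that the NR5A2 product activates and FGF19 restrains, had no value.

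The receptor side of FGF19 was abundant and differed little. FGFR4 was at 155 FPKM untreated and 151 FPKM treated, and KLB, taken for its role as coreceptor, at 18.8 and 19.1 FPKM. The level of KLB was 3.64 times that of FGF19 in the untreated library and 5.70 times in the treated one. Of 10 receptors and adaptors 4 were lower and 6 higher as deposited, where 48.0% of all tested genes were lower. After the rescaling 1 was lower and 9 higher. FGFR3 was at 103 and 114 FPKM and the adaptor gene GRB2 at 67.9 and 66.6 FPKM. FGFR2 alone passed the limit, at 18.6 FPKM untreated and 11.5 FPKM treated, with a log2 ratio of -0.65. Past the limit downward lay 2.12% of all tested genes.

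Of 22 fibroblast growth factor genes, a family also added after values were seen, 4 had values. FGF19 had the lowest ratio of these. FGF12 was at 5.94 FPKM untreated and 4.81 FPKM treated, FGF2 at 2.08 and 1.61 FPKM, and FGF11 was higher at 1.39 and 2.21 FPKM. Genes that lie around FGF19 on its chromosome were lower in 7 of 10 cases, where 48.0% of all tested genes were lower. Their median log2 ratio was -0.09 and none passed the limit. CCND1, the cyclin D1 gene close to FGF19, was at 23.5 FPKM untreated and 15.9 FPKM treated (log2 ratio -0.54), while ORAOV1, which lies between them and overlaps the end of CCND1 on the other strand, was at 4.37 and 4.03 FPKM. Further off, MRPL21, CTTN and FADD differed by less than 0.1 log2 units, though FADD shares 52.6% of its words with another gene. Other neighbours differed more, SHANK2 (log2 ratio -0.31) and MRGPRF (-0.25) being lower, and PPFIA1 (0.21) and IGHMBP2 (0.11) higher.

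Upstream of conjugation, the synthesis enzymes with values were 5 of 10. HSD3B7, which acts on the sterol ring, was at 56.3 FPKM untreated and 51.3 FPKM treated, although 58.7% of its words occur in another gene. CYP27A1, the side-chain hydroxylase of the alternative route, was at 21.9 and 21.0 FPKM. CYP39A1, an oxysterol hydroxylase gene, was higher at 3.71 and 5.62 FPKM, with a log2 ratio of 0.49. The other two, AKR1D1 and CYP7B1, were lower by less than 0.2 log2 units, and none of the 5 passed the limit.

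Of AMACR's peroxisomal partners more were higher than lower, with a median near that of all tested genes. Of the 14 other tested genes of side-chain shortening and branched-chain oxidation, 10 were higher and 4 lower, or 11 and 3 after the rescaling. As deposited, 48.0% of all tested genes were lower. The median log2 ratio of the 14 was 0.06, against 0.01 over all tested genes, and none of the 14 passed the limit. The rescaling moved the median of all tested genes to 0.06. SCP2, the thiolase gene of the last step, was at 172 FPKM untreated and 159 FPKM treated, the transporter gene ABCD3 at 90.9 and 93.2 FPKM, and the catalase gene CAT at 100 and 105 FPKM. Genes of peroxisome biogenesis were lower in 8 of 15 cases as deposited, with a median of -0.01, and in 5 of 15 after the rescaling, where the median turned to 0.04. Of these, PEX2 was at 44.1 and 39.4 FPKM, PEX19 at 26.8 and 33.7 FPKM and PEX26 at 27.4 and 24.4 FPKM.

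Relatives of the conjugation enzymes differed less than SLC27A5. The largest difference among them was that of SLC27A4, higher at 8.60 and 11.8 FPKM with a log2 ratio of 0.42. The ratio of BAAT was -0.44. Of 9 tested acyl-CoA synthetase and thioesterase relatives 6 were lower and none passed the limit, where 48.0% of all tested genes were lower. After the rescaling 4 of the 9 were lower. The median log2 ratio of the 9 was -0.03 and turned to 0.01 after the rescaling. SLC27A2, the other SLC27 enzyme that can activate bile acid precursors, was at 15.7 FPKM untreated and 14.6 FPKM treated, ACSL3 at 118 and 108 FPKM and ACSL4 at 106 and 96.4 FPKM.

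Transport and detoxification completed the axis. Of 8 tested transport genes 3 were lower and 5 higher, with a median log2 ratio of 0.12. With no filter 5 of 10 were lower and the median was 0.0065. FABP1, the liver fatty acid binding protein gene, was at 102 FPKM untreated and 82.1 FPKM treated, the export pump gene ABCC2 at 27.1 and 29.5 FPKM, and TMEM30A, a flippase subunit gene, at 86.8 and 106 FPKM. SLC10A1, the main bile acid importer gene, had no value. Of 4 genes of detoxification and sensing 3 were lower, UGT2B4 at 22.4 and 18.5 FPKM, UGT2B7 at 11.8 and 9.37 FPKM and S1PR2 at 3.38 and 3.17 FPKM, whereas the sulfotransferase gene SULT2A1 was higher at 6.88 and 7.94 FPKM. As deposited, 48.0% of all tested genes were lower. Of 8 tested genes on the list of repressors and stress signals 7 were lower, or 6 after the rescaling. CXCL8 alone among them passed the limit, at 44.8 and 19.1 FPKM, while JUN was at 27.8 and 24.7 FPKM and KDM1A at 39.5 and 36.8 FPKM. Past the limit downward lay 2.12% of all tested genes.

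**Figure D4:**
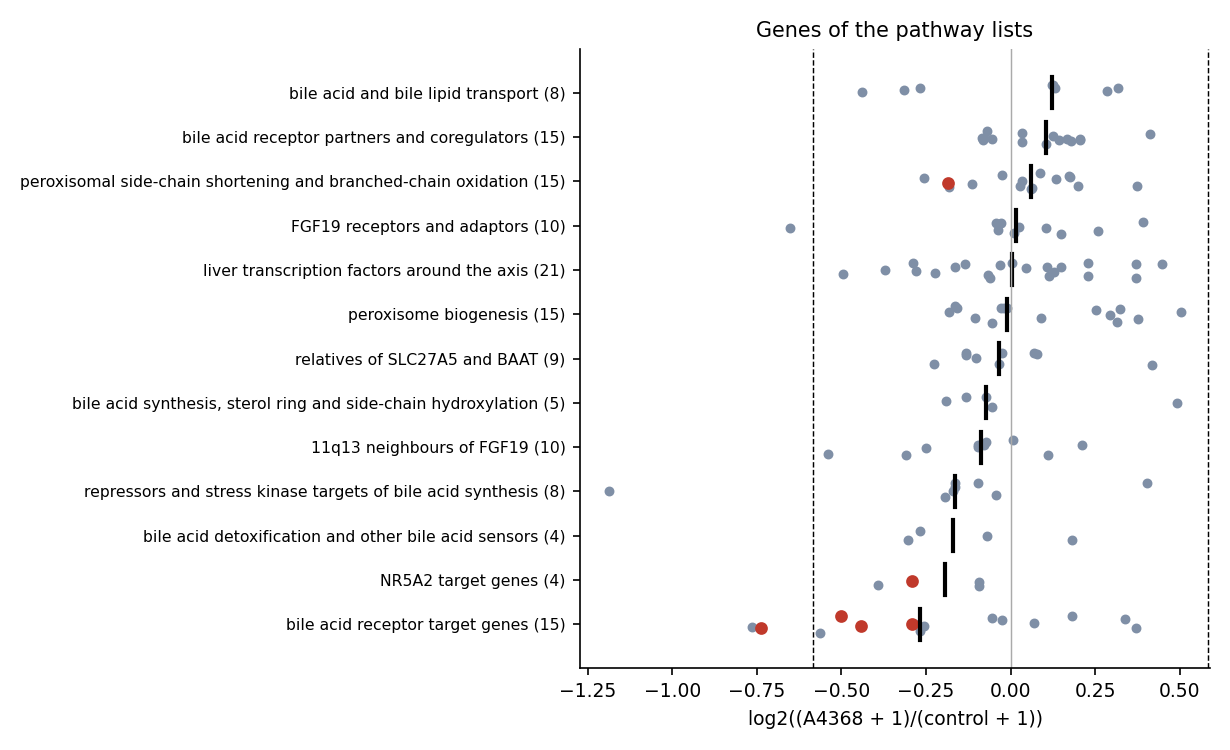
log2 ratio of A4368 over control (pseudocount 1) for each tested gene of the 13 pathway lists, with the number of tested genes in brackets, members in red, list medians as black bars and dashed lines at 1.5-fold. The list of bile acid receptor targets, which holds 4 of the members, has a median of -0.27 with them and -0.05 without them.

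Markers of other cell types were read beside these values. All 5 measured markers of bile duct epithelium were lower, where 48.0% of all tested genes were lower and 2.12% lay past the limit downward. The summed level of these 5 markers was 687 FPKM untreated and 529 FPKM treated. SOX9 passed the limit at 41.2 and 20.1 FPKM, while KRT7 and CFTR had no value. The summed level of the hepatocyte markers was 28550 FPKM untreated and 27597 FPKM treated. Of these 12 markers 9 were lower (8 when rescaled), where 56.0% of all genes averaging 20 FPKM or more were lower. Of 7 leukocyte markers 3 had values, with sums of 50.1 and 39.9 FPKM, LYZ past the limit at 17.6 and 9.48 FPKM and PTPRC without a value, although LYZ shares 39.3% of its words with another gene. CD68 and CD14 were lower by 1.07-fold and 1.01-fold, and 81.2% of the words of CD68 occur in another gene. After the rescaling 2 of the 3 leukocyte markers were lower and 1 higher. Of 7 markers of stellate cells and fibroblasts 2 had values and went opposite ways, LUM at 17.9 and 11.9 FPKM and RGS5 at 0.977 and 1.64 FPKM, while COL1A1 had none. The part of these markers in the lower values of NR1H4, FGF19, SLC27A5 and BAAT was not tested. Both libraries are of the Hep3B line. In bulk RNA, fewer cells expressing a gene and less of its RNA per cell cannot be told apart.

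**Figure D5:**
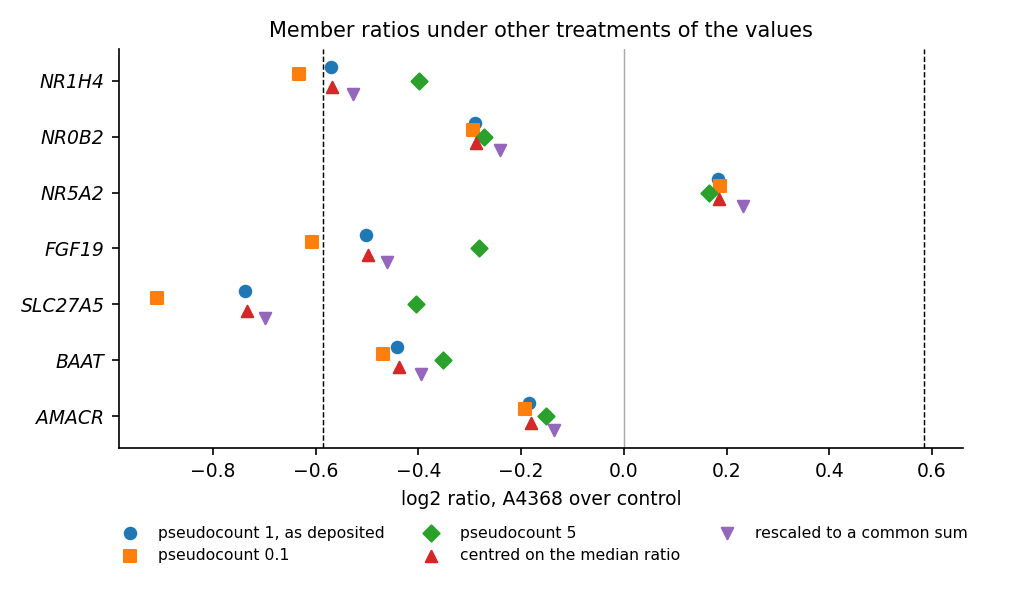
log2 ratio of A4368 over control for the 7 genes with pseudocounts of 1, 0.1 and 5, after centring on the median ratio and after rescaling to a common sum, with dashed lines at 1.5-fold. Each gene keeps its direction in all 5, while SLC27A5, NR1H4 and FGF19 cross the lower line with the pseudocount.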

How the data were processed

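RNA-seq was deposited by the authors as 1 table with a gene symbol and 1 value per library, for 1 control and 1 A4368 library of Hep3B. The header names no unit. The values are not whole numbers, and Cufflinks, TopHat2 2.0.12, Bowtie2 2.2.3 and the build hg19 stand in the submitters' processing notes, so the deposited values were read as FPKM. Annotation and read depth: not given in the sources used here. Of 24302 lines, 12791 held no value. The lowest mean of the libraries was 0.496 FPKM, so lower genes carry no value. Steps of whole reads were looked for in the 1680 genes averaging under 3 FPKM, where no ratio of the libraries, rounded to 3 decimals, was held by more than 6 genes. Depth is therefore unknown and no interval can be given.

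Log2 ratios used a pseudocount of 1, which understates the change of low genes, and genes averaging 1 FPKM or more (11238, with 273 left out). The limit was 1.5-fold on that scale. The code was tested on simulated data. The members, the 13 pathway lists and the 6 marker lists were chosen with earlier results of these data known. Named were the members and, per list, the 3 genes with the highest mean and all past the limit, and others are named for the reason given beside them. Likeness of pattern between genes cannot be measured with 2 libraries. Shared sequence was measured in GENCODE release 29 transcripts, as the percentage of distinct words of 31 bases that another gene also holds on either strand. Alternatives were pseudocounts of 0.1 and 5, no filter, a minimum mean of 5 FPKM, ratios centred on their median over genes averaging 10 FPKM or more, rescaling to 1 sum over all but the 50 highest genes, and a 2-fold limit. A planned comparison of the members' protein sequences was not run, and 1 planned promoter motif is not reported here. Python 3.11.15, numpy 2.4.6 and pandas 2.3.3 were used.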

Additional observations from a re-analysis of the deposited data

How the results depend on the processing

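The direction of each of the 7 genes was the same under every alternative that kept it. The count of members past the limit downward depended on how low values were treated. It was 1 as reported, 3 with a pseudocount of 0.1 (SLC27A5, NR1H4 and FGF19), 0 with a pseudocount of 5, 0 with a limit of 2-fold, and 0 among the 5 members averaging 5 FPKM or more, where SLC27A5 and FGF19 were removed. Over all genes, 238 were lower and 121 higher as reported, 369 and 259 with a pseudocount of 0.1, 78 and 20 with a pseudocount of 5, 140 and 58 at a minimum mean of 5 FPKM, and 49 and 13 at 2-fold. The rescaling gave 196 and 160. The members' median log2 ratio lay between -0.47 and -0.28 over all alternatives, including one chosen after seeing the data that left out AMACR. The rescaling moved the median of all genes from 0.01 to 0.06. Medians near 0 changed sign for the liver transcription factors (-0.03) and the nuclear receptors (-0.01) at a minimum mean of 5 FPKM. No paired analysis was possible because each group has 1 library.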
